A study of Mus musculus with 12 samples.

Results

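The genes described here are 6 mouse genes chosen for the size of their fall in sorted melanoma cells labelled OVA relative to those labelled B16-F10: Clvs1, Dkk3, Gsta4, Gfap, Mgarp and Apol6, 6 of the 77175 genes in the deposited count table. They were picked by that very difference, so their values in the sorted melanoma cells are given as a description, without a test. The yardstick throughout is Dct, dopachrome tautomerase, a melanin-synthesis enzyme of the pigment cell lineage, which serves as a measure of how much melanoma RNA a library holds.

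The study sequenced messenger RNA from 12 mouse libraries in 4 groups of 3. B16-F10 is a C57BL/6 mouse melanoma line, and ovalbumin (OVA) is a model antigen. Both tumor lines carried the calcium sensor GCaMP6s from an EF1A promoter lentivirus with puromycin selection, and the B16-F10-OVA line also carried ovalbumin from an EF1A lentivirus with neomycin selection. Tumors grew in NOD-SCID mice, which lack T and B cells of their own, and all mice received CD8+ T cells from OT-1 donors, whose receptor recognises an ovalbumin peptide, activated on anti-CD3/anti-CD28 beads. Tumors were taken 2 days after the transfer. The 4 groups were melanoma cells sorted for GCaMP6s from OVA tumors, melanoma cells sorted likewise from B16-F10 tumors, T cells taken with CD8 antibody beads from OVA tumors, and T cells taken likewise from B16-F10 tumors. They are called here the tumor fraction and the T cell fraction, each labelled OVA or B16-F10. Nothing in the labels ties the 3 libraries of a group to separate mice, so the spread that a p-value measures here may be technical.

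Each of the genes has a known role in another setting. Clvs1 encodes clavesin 1, a lipid-binding protein of clathrin-coated vesicles in neurons, with the CRAL-TRIO fold. Gfap encodes glial fibrillary acidic protein, the intermediate filament of astrocytes. Dkk3 encodes a secreted glycoprotein of the dickkopf family, whose best-known members block Wnt signalling. Gsta4 encodes a glutathione S-transferase that detoxifies the lipid peroxidation product hydroxynonenal. Mgarp encodes a mitochondrial protein that takes part in the movement of mitochondria. Apol6 belongs to the apolipoprotein L family; its human counterpart is induced by interferon and can promote cell death.

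Library totals ran from 15494683 to 33263730 counts. The summed level of 12 melanoma cell markers was 10000.2 ± 8.79 CPM (each count scaled by its library total) in the tumor fraction labelled OVA and 23496 ± 48.5 CPM in the one labelled B16-F10 (SD, n = 3 each). It was 109.6 ± 3.17 CPM in the T cell fraction labelled OVA and 246 ± 3.80 CPM in the one labelled B16-F10. Endothelial markers (12 genes) summed to 4578 CPM in the tumor fraction labelled OVA and 43.8 CPM in the one labelled B16-F10, where 3 of the 12 were at 0. They exceeded the T cell markers (14 genes) in both T cell fractions, with 10828 against 1486 CPM in the one labelled OVA and 11517 against 1495 CPM in the one labelled B16-F10. In the tumor fraction, T cell markers summed to 249 CPM in libraries labelled OVA and 6.95 CPM in libraries labelled B16-F10, where 4 of the 14 were at 0. Fibroblast markers (14 genes) summed to 2734 CPM in the tumor fraction labelled OVA, 221 CPM in the tumor fraction labelled B16-F10, 6892 CPM in the T cell fraction labelled OVA and 7266 CPM in the T cell fraction labelled B16-F10. Macrophage and monocyte markers (14 genes) summed to 3232, 535, 934 and 899 CPM in the same 4 groups. Their part in the results below was not tested. In bulk RNA, fewer cells of a type and less RNA per cell cannot be told apart.

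For Oca2 and Gpr143, 2 of the 12 melanoma markers, the label ran in opposite directions in the 2 fractions. This bears on every comparison by label below. The other markers had a lower mean CPM under OVA in both fractions. Oca2, a membrane transport protein of melanosomes, averaged 15.0 ± 0.801 CPM in the tumor fraction labelled OVA and 10.6 ± 0.167 CPM in the one labelled B16-F10, while the T cell fraction held 2 counts in all under OVA and 18 under B16-F10. Gpr143, a melanosome receptor, averaged 12.2 ± 0.229 CPM in the tumor fraction labelled OVA and 47.1 ± 0.982 CPM in the one labelled B16-F10, while the T cell fraction had 0.672 ± 0.060 CPM under OVA and 0.339 ± 0.0717 CPM under B16-F10 (SD, n = 3 each). Those T cell fraction values rest on 44 counts under OVA and 18 under B16-F10. The label effect, on the log2 scale, differed between the fractions (T cell minus tumor) by -3.88 (SE 0.648, edgeR quasi-likelihood adjusted p = 8.07e-06) for Oca2 and by 2.81 (SE 0.306, edgeR adjusted p = 8.06e-09) for Gpr143. This test was chosen after the values were seen, and over all genes 27.7% were called higher and 41.3% lower in it. The ovalbumin transcript was not analysed here, so no library's label was checked against it. Whether the labels of one fraction were exchanged was not tested; an exchange would turn the direction of every label comparison in that fraction.

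Promoter sequences are shown for those of the genes with an entry in the RefSeq promoter table (build GRCm38.p6), Gfap and Mgarp. Dct is set beside them as the yardstick, because both genes fell further than Dct in the tumor fraction labelled OVA. Each runs 5′ to 3′ on the gene's own strand, from 250 bases before the annotated start to 50 bases from it on. Capitals mark matches on either strand to CATGTG, the E-box core bound by MITF family factors, to CACGTG, the palindromic E-box, or to TTCNNNGAA, the site type bound by STAT factors; no match overlapped another. Gfap lies at chr11:102897151-102897450, Mgarp at chr3:51396498-51396797 and Dct at chr14:118052197-118052496, all on the minus strand.
Gfap: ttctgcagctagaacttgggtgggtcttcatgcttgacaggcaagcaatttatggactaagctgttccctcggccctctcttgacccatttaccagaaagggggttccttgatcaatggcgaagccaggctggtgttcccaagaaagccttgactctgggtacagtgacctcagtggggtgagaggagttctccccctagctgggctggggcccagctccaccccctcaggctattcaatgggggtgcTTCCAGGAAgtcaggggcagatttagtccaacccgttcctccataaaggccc
Mgarp: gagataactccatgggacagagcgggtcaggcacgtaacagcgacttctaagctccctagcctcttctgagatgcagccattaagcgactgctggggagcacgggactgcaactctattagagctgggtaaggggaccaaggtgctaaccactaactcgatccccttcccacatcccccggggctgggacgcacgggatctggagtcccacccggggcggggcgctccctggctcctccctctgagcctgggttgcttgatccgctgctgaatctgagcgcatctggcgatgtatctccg
Dct: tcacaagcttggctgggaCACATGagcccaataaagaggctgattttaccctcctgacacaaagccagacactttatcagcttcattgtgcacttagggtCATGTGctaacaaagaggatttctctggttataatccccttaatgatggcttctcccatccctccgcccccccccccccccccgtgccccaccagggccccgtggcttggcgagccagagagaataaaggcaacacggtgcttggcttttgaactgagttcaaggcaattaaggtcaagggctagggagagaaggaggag
The Dct window held 2 matches to CATGTG, the Gfap window held 1 match to TTCNNNGAA, and the Mgarp window held none of these. Among 32851 promoters of the same length, 14.2% held CATGTG, 7.15% held CACGTG and 8.30% held TTCNNNGAA. A match describes letters in the window and is not evidence of binding.

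Clvs1 (ENSMUSG00000041216) showed the largest difference of the 6. It had 0.120, 0.107 and 0.0805 CPM in the tumor fraction labelled OVA, from 4, 2 and 2 counts, against 16.7, 14.6 and 14.6 CPM in the one labelled B16-F10. The mean CPM was 149.5-fold lower in libraries labelled OVA. The T cell fraction labelled OVA held 3, 0 and 1 counts, and the one labelled B16-F10 held 0 in each library, where the floor of 3 counts over the group corresponds to 0.0572 CPM. Clvs1 was thus high in 1 group of the 4 and at a handful of counts or none in the others.

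Gfap (ENSMUSG00000020932) also stood high in 1 group only. Its levels were 1.38, 0.640 and 0.523 CPM in the tumor fraction labelled OVA, from 46, 12 and 13 counts, against 18.3, 18.5 and 18.6 CPM in the one labelled B16-F10. The first of the OVA libraries lay above the other two, and all 3 were far below every B16-F10 library. The mean was 21.8-fold lower under OVA. Its T cell fraction levels were 0.124, 0.233 and 0.212 CPM under OVA and 0.104, 0.226 and 0.0645 CPM under B16-F10, which overlap and rest on 1 to 5 counts each.

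Dkk3 (ENSMUSG00000030772) had 4.18, 4.05 and 3.70 CPM in the tumor fraction labelled OVA, against 95.9, 94.9 and 91.9 CPM in the one labelled B16-F10, a 23.7-fold lower mean. It differed from Clvs1 and Gfap in the T cell fraction, where it had 3.79, 4.36 and 3.77 CPM under OVA and 3.94, 3.84 and 3.42 CPM under B16-F10. As many as 3 of the 4 groups therefore lay at one level: 3.98 ± 0.333 CPM in the T cell fraction labelled OVA, 3.73 ± 0.275 CPM in the T cell fraction labelled B16-F10 and 3.98 ± 0.247 CPM in the tumor fraction labelled OVA (SD, n = 3 each), which overlap.

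Gsta4 (ENSMUSG00000032348) had 8.36, 9.17 and 8.09 CPM in the tumor fraction labelled OVA, against 168, 175 and 164 CPM in the one labelled B16-F10, a 19.8-fold lower mean. The T cell fraction had 1.07, 0.930 and 0.763 CPM under OVA and 0.777, 0.848 and 0.516 CPM under B16-F10, overlapping each other and below every tumor library. Mgarp (ENSMUSG00000037161) had 2.68, 3.20 and 3.14 CPM in the tumor fraction labelled OVA, against 57.8, 58.2 and 58.2 CPM in the one labelled B16-F10, a 19.3-fold lower mean. Its T cell fraction values were 2.06, 2.15 and 2.25 CPM under OVA and 1.14, 1.30 and 0.645 CPM under B16-F10, which do not overlap.

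Apol6 (ENSMUSG00000033576) was the only one of the 6 whose order of groups placed a T cell fraction second. It had 0.421, 0.533 and 0.603 CPM in the tumor fraction labelled OVA, against 21.1, 22.4 and 20.2 CPM in the one labelled B16-F10, a 40.9-fold lower mean. The T cell fraction had 7.21, 6.92 and 7.85 CPM under OVA and 0.777, 1.47 and 0.581 CPM under B16-F10. Within the T cell fraction the OVA libraries were all higher, opposite to the tumor fraction, and its lowest group, the tumor fraction labelled OVA, overlapped the T cell fraction labelled B16-F10.

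**Figure D1:**
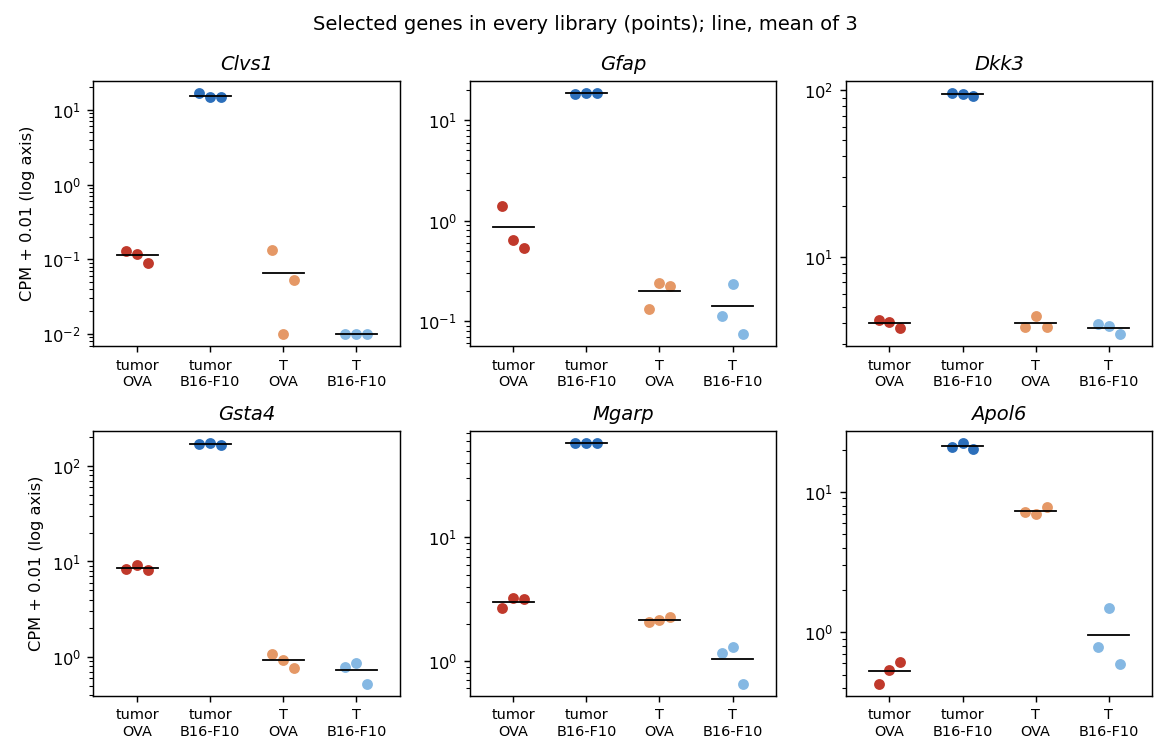
Level of each of the 6 selected genes in CPM + 0.01 on a log axis, for the tumor and T cell (T) fractions labelled OVA or B16-F10; points are the 3 libraries of a group and the line is their mean. The tumor fraction labelled B16-F10 is the highest group in each panel, from 15.3 CPM for Clvs1 to 169 CPM for Gsta4, and Apol6 also stands at 7.32 CPM in the T cell fraction labelled OVA.

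Compared per kilobase of exon (GENCODE M21 gene models), the level in the tumor fraction labelled B16-F10 was 133 CPM per kb for Gsta4, 28.1 for Mgarp, 4.72 for Apol6, 4.38 for Gfap and 2.02 for Clvs1. Dkk3 lay beside Mgarp, and Gsta4 was the most abundant of the 6 transcripts per length.

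Dct served as the measure of melanoma RNA, and its own change may differ from that of melanoma RNA as a whole. It had 2635, 2636 and 2634 CPM in the tumor fraction labelled OVA, against 6712, 6684 and 6771 CPM in the one labelled B16-F10, 2.55-fold lower, while Mitf was 1.46-fold lower, Slc24a5 4.79-fold lower and Oca2 1.41-fold higher. Each of the 6 genes fell further than that. Subtracting the log2 ratio of Dct (-1.35) from theirs left -5.87 for Clvs1, -4.00 for Apol6, -3.21 for Dkk3, -3.09 for Gfap, -2.96 for Gsta4 and -2.92 for Mgarp. Counted per Dct count, Clvs1 was 57.7-fold lower under OVA, Apol6 16.5-fold, Dkk3 9.26-fold, Gfap and Gsta4 both 7.84-fold and Mgarp 7.71-fold. The other 11 melanoma markers ranged from -0.91 (Slc24a5) to 1.85 (Oca2) on the same log2 scale, and 6 of the 11 fell more than Dct. Since the 6 were chosen for the size of this fall, their place beyond the markers is given as a description and supports nothing.

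**Figure D2:**
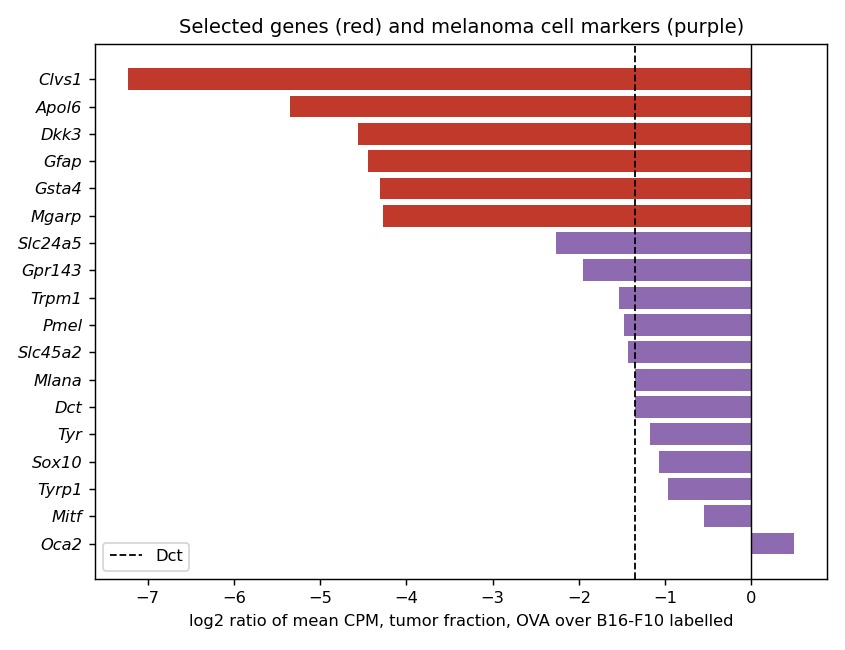
Log2 ratio of mean CPM, OVA over B16-F10 labelled, in the tumor fraction, for the 6 selected genes (red bars) and 12 melanoma cell markers (purple bars); the dashed line marks Dct. The 6 selected genes lie between -7.22 and -4.27, beyond the marker with the lowest ratio, Slc24a5, which lies 0.91 below Dct.

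Over the whole tumor fraction comparison, edgeR called 42.0% of 17418 genes higher and 37.4% lower under OVA with libraries scaled by TMM, and 90.7% higher and 2.78% lower with libraries scaled to Dct, shares from which nothing is read about the 6, since this contrast chose them. With TMM their log2 fold changes ran from -6.97 (Clvs1) to -4.13 (Mgarp). Of 10365 genes with at least 5 CPM in the B16-F10 mean, 16 lay at or below Mgarp, including these 6. The other 10 were Gm12671, Pisd-ps2, Mrap, Gm20619, Gbp11, Gbp10, Gm4841, Gm43302, Gm5537 and an RNA annotated as antisense to Rgs2 (ENSMUSG00000135981). Mrap, an accessory protein of melanocortin receptors, had 0.0234 CPM in the tumor fraction labelled OVA and 5.46 CPM in the one labelled B16-F10. Just past Mgarp came an RNA annotated as antisense to Parp14 (ENSMUSG00000142543) at -3.93, the lysosomal cation channel gene Mcoln3 at -3.93 and Gm12185 at -3.91. Reads of an antisense RNA and its partner cannot be told apart where strand was not used in counting, and the strand setting is not given in the sources used here.

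The T cell fraction took no part in choosing the 6 genes, so the label contrast could be tested there. Apol6 and Mgarp were higher in T cell libraries labelled OVA, and Gsta4 and Dkk3 did not pass the test. Apol6 averaged 7.32 ± 0.475 CPM under OVA and 0.942 ± 0.467 CPM under B16-F10 (SD, n = 3 each), with a TMM log2 fold change of 3.00 (SE 0.196, edgeR quasi-likelihood adjusted p = 6.46e-13). Mgarp averaged 2.15 ± 0.0937 CPM under OVA and 1.03 ± 0.341 CPM under B16-F10, with a log2 fold change of 1.10 (SE 0.243, edgeR adjusted p = 0.000509). For Gsta4 the log2 fold change was 0.41 (SE 0.316, edgeR adjusted p = 0.316), and for Dkk3 it was 0.13 (SE 0.145, edgeR adjusted p = 0.491). Clvs1 and Gfap had too few counts to pass the filter. Thus 2 of the 4 genes tested were higher and 0 lower, where 23.7% of all 16536 genes tested were higher and 22.4% lower.

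Dct itself had 35.3, 41.4 and 38.5 CPM in the T cell fraction labelled OVA, against 85.5, 89.7 and 90.3 CPM in the one labelled B16-F10, 2.30-fold lower, with a TMM log2 fold change of -1.15 (SE 0.0429, edgeR adjusted p = 2.92e-18). Scaled to Dct, all 4 genes tested were higher under OVA, by a log2 fold change of 4.15 for Apol6 (SE 0.194), 2.24 for Mgarp (SE 0.256), 1.55 for Gsta4 (SE 0.342) and 1.28 for Dkk3 (SE 0.172). This count says little about the 4, because 93.9% of all genes were higher and 0.865% lower on that scale, with a median of 1.14; Dkk3 and Gsta4 lay close to that median, and Mgarp and Apol6 lay above it. The counting error of Dct, which had 713 to 1650 counts per T cell library, is not part of these SEs.

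Relative to Dct, values ran lower in tumor libraries labelled OVA for all 6 genes, by which they were chosen, and higher in T cell libraries labelled OVA for the 4 genes tested, as for most genes on that scale. Per 1000 Dct counts, Gsta4 had 3.21 in the tumor fraction labelled OVA and 25.2 in the one labelled B16-F10, but 24.2 in the T cell fraction labelled OVA and 8.20 in the one labelled B16-F10. Gfap had 0.351 and 2.75 in the tumor fractions labelled OVA and B16-F10, and 4.84 and 1.51 in the T cell fractions labelled OVA and B16-F10. For Gfap, which could not be tested, the pooled ratio per Dct in the T cell fraction, OVA over B16-F10, was 3.21 (95% Clopper-Pearson interval 1.16 to 9.61, 12 against 7 counts) with no overlap between the libraries. Clvs1 had 4 against 0 counts, a ratio of at least 2.49 if the 0 is set to the floor of 3 counts over the group, with an exact 95% lower limit of 1.23; its second library labelled OVA had 0 counts, so the groups overlap. For Gsta4, near 1 CPM in this fraction, the same ratio was 2.95 (95% interval 1.93 to 4.56, 60 against 38 counts). These intervals cover counting error only. They compare with a ratio of 1 and not with all genes on this scale, of which 93.9% were higher, with a median log2 fold change of 1.14. In CPM the T cell libraries of Gfap and Gsta4 overlapped between the labels. Several melanoma markers crossed in the same way, with ratios per Dct, OVA over B16-F10, of 0.915 in the tumor fraction and 1.51 in the T cell fraction for Pmel, 0.533 and 1.45 for Slc24a5, 0.879 and 1.29 for Trpm1, and 0.656 and 4.57 for Gpr143. The crossing was thus not particular to the 6 genes, and Tyrp1 (1.30 and 0.744) and Oca2 (3.60 and 0.208) crossed the other way. Other markers kept their direction, higher per Dct under OVA in both fractions: Mitf (1.742 and 1.503), Sox10 (1.212 and 1.286) and Tyr (1.123 and 1.149). Per Dct, the T cell libraries of Trpm1 and Slc45a2 (0.944 and 1.096) overlapped between the labels. Those of Mlana overlapped in both fractions.

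**Figure D3:**
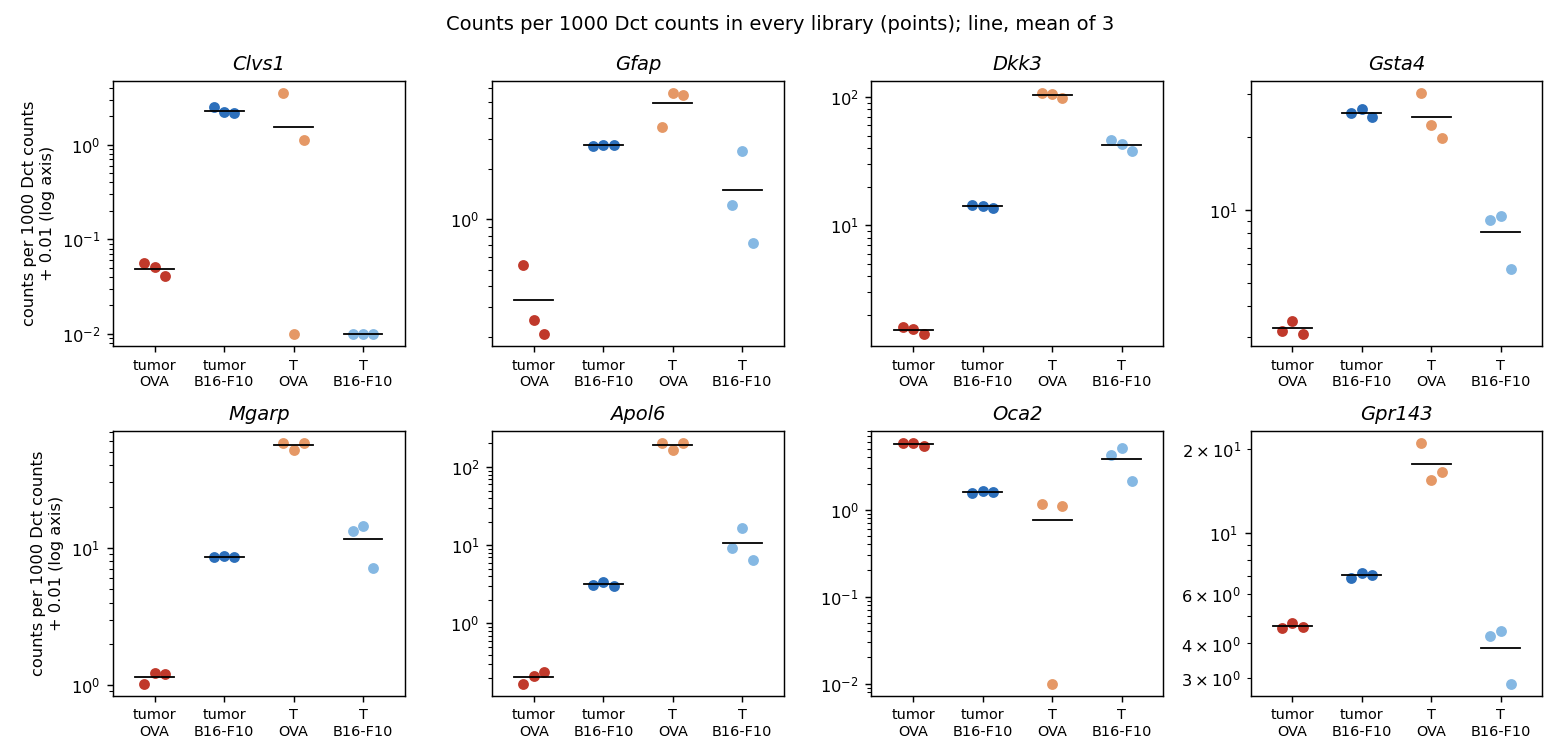
Counts per 1000 Dct counts, with 0.01 added, on a log axis, for the 6 selected genes and the markers Oca2 and Gpr143; points are libraries of the tumor and T cell (T) fractions by label and the line is the mean of 3. For Gsta4 the pooled values are 3.21 and 25.2 in the tumor fractions labelled OVA and B16-F10, but 24.2 and 8.20 in the T cell fractions labelled OVA and B16-F10; Gpr143 runs the same way as Gsta4 and Oca2 the other way.

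The same can be put as counts. If a T cell library held each gene and Dct in the ratio of a tumor group, its Dct counts would bring a certain number of counts of the gene with them. Melanoma markers also departed from this number. At the tumor ratio of the same label, Pmel had 0.735 times it under OVA and 0.447 times it under B16-F10. Sox10 had 0.573 and 0.540 times it, and Gpr143 3.86 and 0.554 times it. Mlana departed less, at 1.16 and 1.18 times it. For Gsta4 in the T cell fraction labelled OVA, the 60 counts observed compare with 7.97 at the ratio of the tumor fraction labelled OVA and 62.5 at the ratio of the tumor fraction labelled B16-F10. In the T cell fraction labelled B16-F10, the 38 counts observed compare with 14.9 at the ratio of the tumor fraction labelled OVA and 117 at that of the tumor fraction labelled B16-F10. Clvs1 gave 4 counts in the T cell fraction labelled OVA, against 0.0979 and 5.65 at the OVA and B16-F10 tumor ratios, and 0 counts in the T cell fraction labelled B16-F10 (95% Poisson upper limit 3.69), against 0.183 and 10.6. Gfap gave 12 counts under OVA, against 0.869 and 6.81, and 7 counts under B16-F10, against 1.63 and 12.7. For these 3 genes the T cell fraction labelled OVA thus lay nearer the ratio of the tumor fraction labelled B16-F10 than that of its own label. The T cell fraction labelled B16-F10 gave no such uniform picture. There Gfap lay nearer its own label, at 0.550 times the B16-F10 tumor ratio and 4.31 times the OVA one. Gsta4 lay between, at 0.325 times the B16-F10 tumor ratio and 2.55 times the OVA one, and Clvs1 had 0 counts. The cause of these differences was not tested. All 3 genes were chosen for low values in the tumor fraction labelled OVA, and Clvs1 and Gfap rest on 4 and 12 counts. Nothing about the labels is therefore read from these counts.

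Dkk3, Mgarp and Apol6 exceeded both tumor ratios in both T cell fractions. Dkk3 had 256 counts in the T cell fraction labelled OVA, against 34.8 at the higher of the tumor ratios, and 197 in the one labelled B16-F10, against 65.1. Mgarp had 140 counts under OVA, against 21.4, and 55 under B16-F10, against 40.1, which lies just below the observed count's 95% Poisson interval of 41.4 to 71.6. Apol6 had 479 counts under OVA, against 7.86, and 50 under B16-F10, against 14.7. Most of the Dkk3 and Apol6 counts in the T cell fractions were thus above what either tumor ratio to Dct brings.

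**Figure D4:**
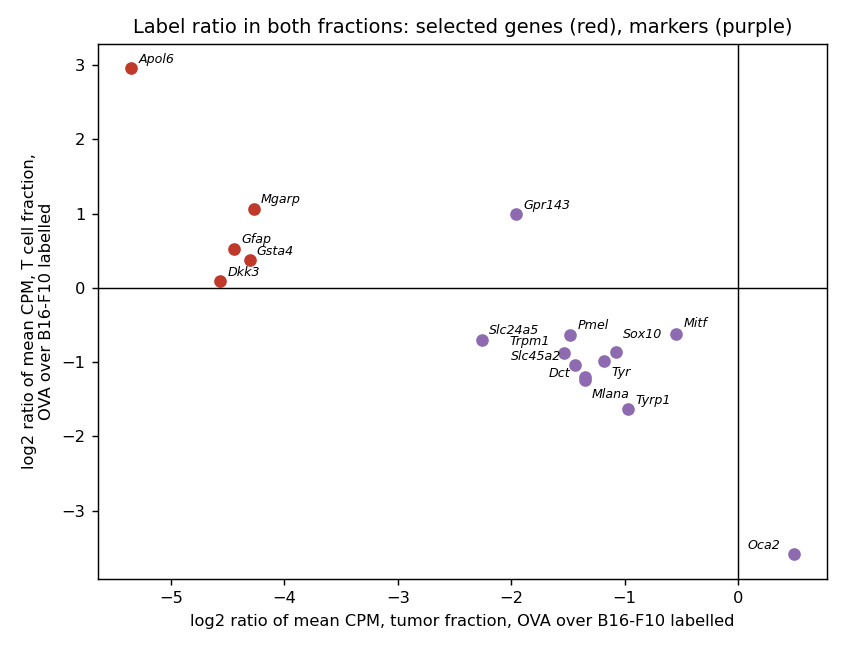
Log2 ratio of mean CPM, OVA over B16-F10 labelled, in the tumor fraction (horizontal) and the T cell fraction (vertical), for the selected genes (red) and melanoma cell markers (purple); Clvs1 is left out because it had 0 counts in the T cell fraction labelled B16-F10. Apol6 lies at -5.35 and 2.96, and 10 of the 12 markers fell in both fractions, the exceptions being Gpr143 and Oca2.

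The families of the 6 genes were followed through lists that leave the 6 out. Their counts in the tumor fraction are to be read beside 42.0% of all genes higher and 37.4% lower with TMM, and 90.7% higher and 2.78% lower scaled to Dct. Those in the T cell fraction, all with TMM, are to be read beside 23.7% of all genes higher and 22.4% lower. In the tumor fraction, 3 of 5 tested apolipoprotein L genes were lower under OVA and 0 higher (median log2 fold change -2.70, against 0.04 over all genes), and scaled to Dct 3 were lower and 2 higher (median -1.53, against 1.22 over all genes). Apol9a averaged 1.28 ± 0.0514 CPM in the tumor fraction labelled OVA and 16.4 ± 0.395 CPM in the one labelled B16-F10 (log2 fold change -3.50, SE 0.108, edgeR adjusted p = 9.82e-19). Apol9b, its close paralog, followed at -3.23 and Apol10b at -2.70; how reads shared by paralogs were counted is not given in the sources used here. Of 6 tested in the T cell fraction, 3 were higher and 1 lower (median 0.68), the higher ones including Apol9a at 1.17 (SE 0.190, edgeR adjusted p = 1.03e-05).

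Interferon-inducible GTPases, which defend cells against intracellular pathogens, are listed because the human counterpart of Apol6 is also induced by interferon. In the tumor fraction 14 of 18 were lower under OVA and 3 higher (median -1.21), but scaled to Dct 9 were lower and 8 higher (median -0.02). Gbp10 averaged 2.61 ± 0.425 CPM in the tumor fraction labelled OVA and 69.9 ± 1.27 CPM in the one labelled B16-F10 (log2 fold change -4.54, SE 0.0693, edgeR adjusted p = 1.08e-24). Its T cell fraction mean was 55.0 ± 3.52 CPM under OVA and 7.39 ± 1.49 CPM under B16-F10 (log2 fold change 2.98, SE 0.0795, edgeR adjusted p = 1.74e-21). Gbp11 took the same course, at -4.74 in the tumor fraction and 2.24 in the T cell fraction, as Apol6 did. Gbp9, in contrast, was higher under OVA in both, by 2.84 in the tumor fraction and 1.09 in the T cell fraction. All 18 were higher in the T cell fraction under OVA, where 23.7% of all genes were (median 2.31, against -0.01 over all genes).

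Of 23 tested glutathione S-transferases, 12 were lower and 7 higher in the tumor fraction under OVA (median -0.58), where 37.4% of all genes were lower and 42.0% higher, whereas scaled to Dct 5 were lower and 14 higher (median 0.60), where 2.78% of all genes were lower and 90.7% higher. The alpha class genes beside Gsta4 were among the lower ones. Gsta1 averaged 20.9 ± 0.686 CPM in the tumor fraction labelled OVA and 126 ± 2.06 CPM in the one labelled B16-F10 (log2 fold change -2.44, SE 0.0353, edgeR adjusted p = 3.77e-25), Gsta2 lay at -2.79 and Gsta13 at -2.63. These are close paralogs whose reads could be split. Gstp3 was higher, at 2.91. Of 20 tested in the T cell fraction, 4 were higher and 6 lower (median 0.08).

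For the families of Dkk3 and Gfap, higher genes outnumbered lower ones, as they also did over all genes (42.0% and 37.4%). Of 9 tested dickkopf genes and other secreted Wnt antagonists, 6 were higher and 2 lower in the tumor fraction under OVA (median 1.66), and 8 and 1 scaled to Dct, near the 90.7% higher over all genes. Dkk2 averaged 5.77 ± 0.553 CPM in the tumor fraction labelled OVA and was at 0 in all 3 libraries labelled B16-F10, and Sfrp1 averaged 3.90 ± 0.0887 CPM under OVA and 0.0939 ± 0.0423 CPM under B16-F10. Of 11 tested intermediate filament and glial genes, 7 were higher and 4 lower, both with TMM (median 2.47) and scaled to Dct (median 3.64). Nes, which encodes the intermediate filament nestin, averaged 115 ± 2.49 CPM in the tumor fraction labelled OVA and 8.34 ± 0.548 CPM in the one labelled B16-F10 (log2 fold change 3.96, SE 0.0458, edgeR adjusted p = 5.05e-27), and Synm, which encodes synemin, 23.6 ± 0.397 and 0.452 ± 0.210 CPM. Nes, Synm and Dkk2 were also abundant in the T cell fraction, at 214, 53.4 and 17.4 CPM under OVA and 327, 60.4 and 21.2 CPM under B16-F10, and endothelial and fibroblast markers rose with them in the tumor fraction labelled OVA; their part in it was not tested. Among T cell libraries labelled OVA, 2 Wnt antagonists were higher and 3 lower of 9 (median -0.04), and 3 filament and glial genes higher and 6 lower of 12 (median -0.17).

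For the remaining families the picture was mixed. Of 7 tested CRAL-TRIO genes, relatives of Clvs1, 4 were higher and 3 lower in the tumor fraction under OVA (median 0.27), and 5 and 1 scaled to Dct, with Sec14l2 at -1.44 (SE 0.0739, edgeR adjusted p = 2.06e-14) and Ttpa, the vitamin E transfer protein, at -1.25 (SE 0.158, edgeR adjusted p = 1.77e-07). Of 12 mitochondrial transport genes, listed for Mgarp, 4 were higher and 5 lower (median 0.00), against 12 and 0 scaled to Dct, counts near the shares over all genes on both scales, with Trak2, an adaptor that links mitochondria to motor proteins, at -0.97 and the hypoxia-inducible factor gene Epas1 at 4.50. Clvs1 at -6.97 and Mgarp at -4.13 lay below all 3 of these lower genes, a place that follows from how the 2 were chosen. Among T cell libraries labelled OVA, 0 CRAL-TRIO genes were higher and 1 lower of 5 (median -0.01), and 4 mitochondrial transport genes were higher and 1 lower of 12 (median 0.08).

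Across the 12 libraries, Clvs1, Dkk3, Gfap, Mgarp and Gsta4 followed the mean profile of the 6 with Pearson correlations of 0.940 to 0.995 on log2(CPM + 0.5) values, and Apol6 with 0.808. That mean includes the gene it is compared with, which raises the correlation. Pairs of the 6 correlated from 0.581 (Gsta4 and Apol6) to 0.998 (Clvs1 and Dkk3). The profile is set mainly by 1 group of 3 libraries, so these are a description. Outside the 6, the search was limited to genes with at least 5 CPM in the tumor fraction labelled B16-F10. Predicted genes, clones and pseudogenes were left out. Within these limits the profiles most like it were those of St13 (0.998), Stam (0.997), Rdx (0.997), Tax1bp1 (0.997) and Srebf2 (0.996). Their folds were much smaller: St13, a co-chaperone gene, averaged 130 CPM in the tumor fraction labelled OVA and 307 CPM in the one labelled B16-F10, with 128 CPM in the T cell fraction labelled OVA and 116 CPM in the one labelled B16-F10.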

How the data were processed

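RNA was sequenced from poly(A)-selected libraries of 12 samples. The deposited values are raw counts by Ensembl gene, which the authors made with HISAT2 2.0.5 and featureCounts 1.6.0 on GRCm39, per the submitters' processing notes; strand, multimapping and annotation settings are not given in the sources used here. All count columns were used. Replicate libraries differed by more than sampling noise.

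From the counts, CPM (each count over its library total) was computed, and edgeR 4.0.16 quasi-likelihood F tests (R 4.3.3) were run on the 6 libraries of each fraction after filterByExpr, with TMM or with Dct counts as library size, Benjamini-Hochberg adjustment over all genes tested and a threshold of 0.05. The difference between fractions used all 12 libraries. Alternatives were DESeq2 1.42.0, median-ratio factors, no filter, other melanoma markers, leaving out libraries and a replicate block. Tests were checked on simulated data. The 6 genes and all lists were chosen with earlier results of these data known. Genes outside the 6 were named by size of fall (up to 10, and the next 3), the 5 profiles most alike, and up to 4 called genes per family with the largest change; the text uses a selection. Exon lengths came from a GRCm38 annotation.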

Additional observations from a re-analysis of the deposited data

Results flagged for a closer look

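The label effect ran opposite ways in the tumor and T cell fractions for 2 of the 6 genes, with all 3 libraries labelled OVA below all 3 labelled B16-F10 in the tumor fraction and above them in the T cell fraction. The log2 CPM ratio, OVA over B16-F10, was larger in the T cell than in the tumor fraction by 8.31 for Apol6 and by 5.34 for Mgarp. These 2 differences were not tested, since the tumor contrast chose the genes. Of 8036 genes whose tumor libraries labelled OVA all lay below those labelled B16-F10, 16.6% had all T cell libraries labelled OVA above those labelled B16-F10.

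For 6 of the 12 melanoma markers the difference between the label effects (T cell minus tumor fraction, log2, edgeR over 12 libraries) passed the test: Gpr143 by 2.81, Slc24a5 by 1.46, Pmel by 0.74, Trpm1 by 0.58, Tyrp1 by -0.79 and Oca2 by -3.88. Over all genes tested, 27.7% were called higher and 41.3% lower, so passing this test was common. In CPM the direction itself differed between the fractions for Gpr143 and Oca2 among these 6, and per Dct it differed for all 6.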

How the results depend on the processing

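In the T cell fraction, 2 of the genes tested were higher and 0 lower with TMM, and 4 higher and 0 lower per Dct, under every alternative run, the replicate block included (2 and 0 with TMM, 4 and 0 per Dct). Same-numbered libraries did not visibly deviate together (correlations -0.0740, -0.000773 and 0.0631 in the T cell fraction). Different-numbered ones gave values from -0.0646 to 0.0704. With 3 libraries per group and small deviations between them, these correlations cannot settle whether the numbers pair the libraries. The log2 fold change ranged from 2.78 to 3.46 with TMM and from 3.57 to 4.59 per melanoma measure for Apol6, and from 0.88 to 1.28 and from 1.67 to 2.67 for Mgarp. In the tumor fraction the log2 ratio minus that of the melanoma measure ranged from -7.72 to -4.97 for Clvs1 and from -4.77 to -2.01 for Mgarp over the yardsticks and left-out libraries; the choice of the genes fixes this direction, so it is no sign of stability. The family lists together, with 31 genes higher and 43 lower by TMM, had 56 higher and 23 lower when scaled to Dct, an alternative chosen after seeing the data. Of all genes, 42.0% were higher and 37.4% lower by TMM, and 90.7% higher and 2.78% lower when scaled to Dct. The median log2 fold change of all genes was 0.04 with TMM and 1.22 scaled to Dct. In the T cell fraction Clvs1 and Gfap were limited by depth, at 0 to 5 counts per library.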
